A study of Homo sapiens with 68 samples.

Results

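The sites described here are 9011 RNA regions at which the hnRNPI and the hnRNP C immunoprecipitates both gave a peak, while those of hnRNPA1 and RBFOX2 gave none. They were chosen by presence in 8 peak lists, those of the 50k libraries prepared without gel excision. A site is a peak of hnRNPI_50k_noPAGE replicate 1 that was overlapped on its own strand, by 1 nt or more, by a peak of hnRNPI replicate 2 and of both hnRNPc_50k_noPAGE libraries, and by no peak of the 4 hnRNPA1 and RBFOX2 libraries of that kind. The anchor list held 353415 peaks, of which 203744 were overlapped by hnRNPI replicate 2 and are called the hnRNPI reference. The sites were 4.42% of that reference. On the hnRNP C side, they were covered by 8456 of the 209379 hnRNPc peaks found in both replicates, or 4.04%. Presence in those 8 lists is therefore a description, with no test.

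hnRNP C and hnRNPI, also known as PTBP1, are abundant nuclear proteins that bind nascent transcripts. hnRNP C prefers uninterrupted runs of uridine and is known for keeping exons that arise from Alu repeats out of mature RNA. hnRNPI prefers pyrimidine-rich RNA with mixed uridine and cytidine and is known as a repressor of alternative exons. hnRNPA1, another abundant hnRNP protein, and RBFOX2, a splicing factor that recognises a short GCAUG element, have other sequence preferences. No genome sequence of the build of the lists was at hand, so the base composition of the sites was not analysed here.

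The study used TLC-CLIP, in which proteins are crosslinked to RNA by ultraviolet light, 1 protein is immunoprecipitated, and the RNA fragments bound to it are sequenced. All 68 libraries came from cultures of HEK293T, a cell line derived from human embryonic kidney; there were 34 groups with 2 replicates each and no other genotype or drug. One antibody was used for each of the 4 proteins (that for RBFOX2 is labelled RBM9), so a difference between proteins is also one between antibodies. The labels do not say whether replicates came from separate cultures, and p-values measure the spread between these libraries, which may be technical.

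The groups differed in preparation. The 50k libraries came from 50000 cells and 0.005 U of RNase, either with gel excision (lowRNase), without it (noPAGE), or without it and with an added RecJ exonuclease step (noPAGE_RecJ). The mediumRNase libraries of hnRNPA1 and hnRNP C received 0.025 U. The hnRNPc libraries titled 5k and 500 are labelled with 50000 cells, although the titles point to 5000 and 500. The 10k and 1k libraries of hnRNP C and RBFOX2 came from 10000 cells with 0.001 U and from 1000 cells with 0.0001 U. The noUV libraries of each protein, with gel excision and without (noUV_noPAGE), had 0.005 U, and the absence of crosslinking is taken from their titles. The Background libraries were hnRNP C immunoprecipitates from 10000 cells, cut from 4 other regions of the gel. The noUV, 10k, 1k and Background libraries carry accessions from a separate run, so a preparation batch and crosslinking cannot be told apart.

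The lists held between 303 and 523402 peaks, and sequencing depth is unknown. One list stood apart from its replicate: hnRNPc_50k_lowRNase replicate 1 held 3268 peaks, and replicate 2 held 214849. Each tested difference that uses it is given with and without it. Marker genes of the cell line could not be checked, because the lists pair no gene identifier with a name.

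The sites made up 51.2% of the 17604 reference peaks that both hnRNPc libraries overlapped, and these 17604 were 8.64% of the reference. The other 8593 were also overlapped by hnRNPA1 or RBFOX2. Of those, 3190 had hnRNPA1 and no RBFOX2, 2033 had RBFOX2 and no hnRNPA1, and 1912 were present in all 4 further libraries. The hnRNPI reference also held 123781 peaks that none of the 6 lists of other proteins overlapped, called hnRNPI-only peaks below. Sharing with hnRNP C was thus the less common state of a hnRNPI peak.

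The membership rule has an edge on either side. For 92 sites the smallest of the 3 required overlaps was 1 nt, for 256 it was at most 3 nt, and for 1029 at most 10 nt, against a median of 35 nt. Just outside the rule lay 28 peaks that missed it by a hnRNPA1 or RBFOX2 overlap of 1 nt, and 117 that missed it by at most 3 nt. Sites with a smallest overlap of 1 nt had a median of 18 reads in the anchor list, and the 28 peaks just outside had 22.5. A further 16170 reference peaks were overlapped by only 1 of the 2 hnRNPc libraries and by no hnRNPA1 or RBFOX2 library, and 2762 by both hnRNPc libraries and 1 library of the other proteins.

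The sites were spread over many genes. The lists assigned them to 3637 Ensembl gene identifiers, 29.3% of the 12394 that held a reference peak. In 1759 of these genes there was 1 site, while 77 genes held 10 or more and together carried 1084 sites, or 12.03%. Genes with a site had a median of 23 reference peaks, and all reference genes had 7. The sites fell on 8643 distinct intervals, since the lists give some intervals under 2 genes. Joined across gaps of under 30 nt they formed 7971 stretches, of which 7122 held 1 site and the longest run held 8.

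Site width was close to that of the reference. The median was 81 nt with quartiles of 57 and 112 nt, and reference peaks had a median of 84 nt. The narrowest site was 3 nt and the widest 381 nt. On the plus strand lay 4805 sites and on the minus strand 4206. Chromosome 1 held the most, 1000 sites, while the share of the reference that met the rule ranged from 3.47% on chromosome 4 to 6.17% on chromosome 22. Chromosomes 17, 21, 16 and 19 followed at 6.03%, 6.14%, 5.94% and 5.44%. No site lay on chromosome M or chromosome Y, where the reference held 89 and 8 peaks.

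The gene with the most sites was ENSG00000100154, with 28 sites between 28557504 and 29022449 on the minus strand of chromosome 22 (hg19, as all coordinates here). These were 7.05% of its 397 reference peaks, and 21 of the 28 were overlapped by all 4 RecJ libraries of hnRNP C and hnRNPI. ENSG00000145147 followed with 27 sites at chr4:20274344-20429538 on the plus strand, 8.88% of its 304 reference peaks. Its sites were the most strongly covered of the 12 genes with the most sites. Their median was 159 and 154 reads in the hnRNPI replicates and 136 and 111 in the hnRNPc replicates. A RecJ peak of all 4 libraries lay on 22 of the 27, and 25 were present in at least 1 noUV hnRNPc library.

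Densities differed among the other 10 of these genes. A gene spanning sites at chrX:73428025-73499087 on the minus strand held 19 sites in 71.1 kb, 14.1% of its 135 reference peaks, the highest share of the 12. By contrast, the 25 sites at chr7:69079542-70236376 were scattered over 1157 kb and were 5.13% of 487 reference peaks. Their hnRNPc medians, 14 and 15 reads, were the lowest of the 12 genes in each replicate. Their hnRNPI medians were 29 and 29 reads. Further genes held 24 sites at chr1:225119821-225363743, 23 at chr7:93221245-93412759, 22 at chr3:136208407-136464845 and 21 at chr13:93881544-94734422. In the gene with 19 sites at chr1:61573657-61925354, the hnRNPc medians of 29 and 33 reads exceeded the hnRNPI medians of 26 and 23, the only one of the 12 genes in which both did.

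The read number of a peak is the last number in its name, taken here as the reads over the peak. It was at least 4 in every list and is not scaled between libraries. In the lists that chose them, the sites had medians of 24 and 23 reads in the hnRNPI replicates and 17 and 18 in the hnRNPc replicates. The highest values were 2288 and 2263 for hnRNPI and 1178 and 1163 for hnRNP C. In the anchor list, the median was 20 for the whole reference, 18 for hnRNPI-only peaks and 43 for the 1912 peaks shared by all 4 proteins. The sites thus lay between hnRNPI-only peaks and fully shared peaks in hnRNPI coverage.

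How strongly a site was covered in hnRNPI said little about its coverage in hnRNP C. Over the 9011 sites, Spearman's rho was 0.87 between the hnRNPI replicates and 0.78 between the hnRNPc replicates, but 0.21 to 0.23 between libraries of different proteins. These are descriptions over sites that share libraries and selection, and neighbouring sites can share reads.

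**Figure D1:**
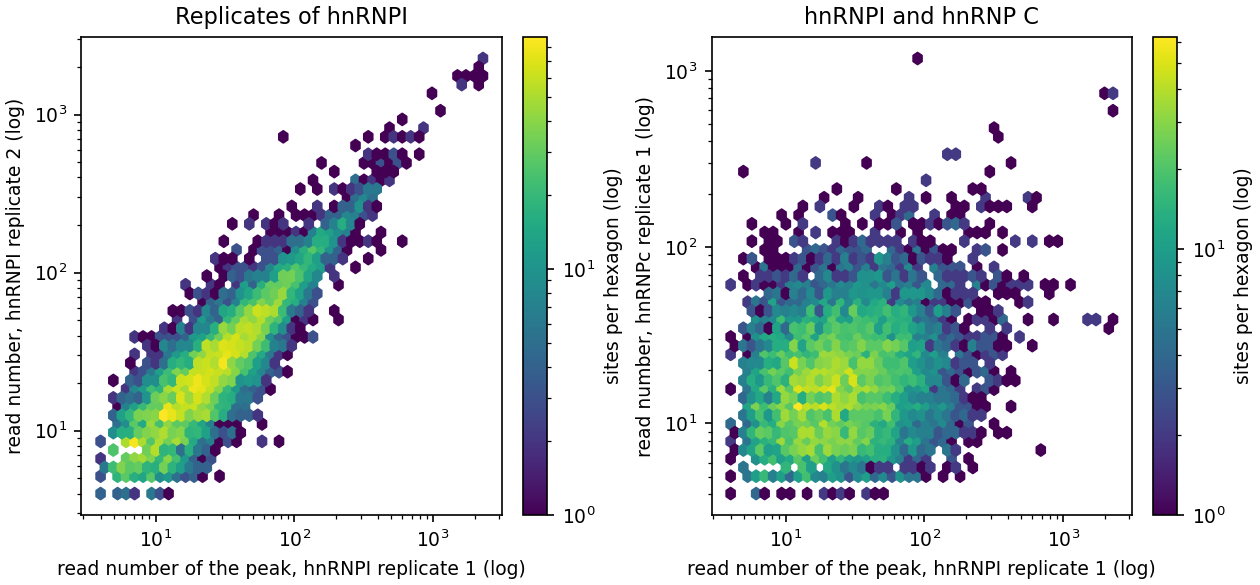
Read number of each of the 9011 sites on log axes, hnRNPI replicate 1 against hnRNPI replicate 2 (left) and against hnRNPc replicate 1 (right), all 50k without gel excision. Colour gives the number of sites per hexagon on a log scale. The left cloud follows a diagonal (rho 0.87), and the right cloud is broad (rho 0.22).

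The centres of the hnRNP C peaks lay close to those of the hnRNPI peaks, a little farther off than a second hnRNPI library. In the lists that chose the sites, the median absolute distance from the anchor centre was 18 nt and 17.5 nt for the hnRNPc replicates and 13 nt for hnRNPI replicate 2. Within 10 nt lay 33.4% and 33.3% of the hnRNPc centres and 42.2% of the hnRNPI centres. In 9 of 10 sites the distance was at most 60.5 nt and 59 nt for hnRNP C and 46.5 nt for hnRNPI.

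The same order held in libraries that the rule did not use. With RecJ, the hnRNPc medians were 17 nt and 16.5 nt and the hnRNPI medians 13 nt in both replicates. With gel excision (lowRNase), they were 22.2 nt and 23 nt for hnRNP C and 18 nt and 18.5 nt for hnRNPI. In both preparations each hnRNPc library lay farther from the anchor centre than each hnRNPI library. The difference was 4.06 nt on average over the 2 preparations (means of 19.7 nt and 15.6 nt, 4 libraries each). Its exact two-sided permutation p was 0.0556, the smallest that 36 relabellings allow, so this design cannot reach 0.05. The anchor is itself a hnRNPI peak, so the measure does not treat the 2 proteins alike. Without hnRNPc_50k_lowRNase replicate 1 the difference was 4.25 nt.

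Neither protein lay to 1 side of the other. Along the strand, the median signed distance of the hnRNP C centre was -0.5 nt and -1 nt in the lists that chose the sites, with positive values towards the 3′ end. With RecJ it was 0 nt and -0.5 nt, and in lowRNase 3 nt in both replicates. The hnRNPI libraries gave medians of 0 nt to 2.5 nt, within that range. In hnRNPc_50k_noPAGE, 50.1% and 51.0% of centres lay upstream of the hnRNPI centre and 48.8% and 48.1% downstream.

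**Figure D2:**
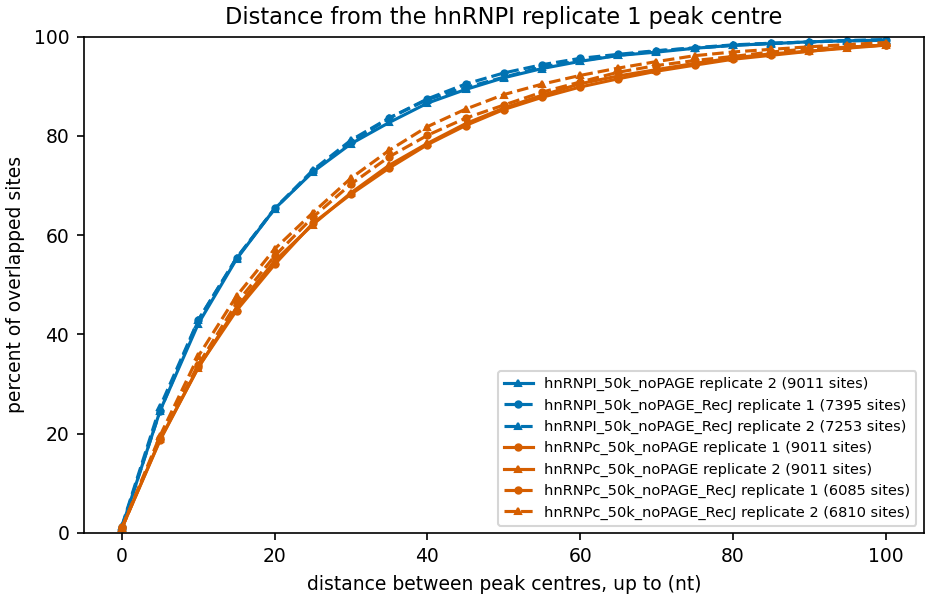
Cumulative percent of overlapped sites (y axis) whose peak centre lay within a given distance in nt (x axis) of the hnRNPI_50k_noPAGE replicate 1 centre, for 1 hnRNPI and 2 hnRNPc libraries that chose the sites (solid) and 4 RecJ libraries (dashed). All 3 hnRNPI curves rise above the 4 hnRNPc curves, with 65.3% and 54.1% within 20 nt in hnRNPI replicate 2 and hnRNPc replicate 1.

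Peaks of the excluded proteins could lie near the sites. A hnRNPA1 peak lay within 50 nt of 9.03% of the sites and within 200 nt of 34.5%, against 8.69% and 31.6% of hnRNPI-only peaks. A RBFOX2 peak lay within 50 nt of 4.03% and within 200 nt of 14.9%, against 3.12% and 10.7%. For hnRNPA1 the shares were close to those of hnRNPI-only peaks, and for RBFOX2 they were somewhat higher. No test was made of these shares.

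Libraries that the rule did not use found the sites again by protein. In the RecJ libraries, 6085 and 6810 sites carried a hnRNPc peak, 67.5% and 75.6%, while 12.9% and 15.9% of the hnRNPI reference did. A hnRNPI peak was found on 7395 and 7253 sites, 82.1% and 80.5%, against 79.1% and 78.6% of the reference. hnRNPA1 overlapped 442 and 463 sites (4.91% and 5.14%; reference 12.5% and 13.1%), and RBFOX2 overlapped 423 and 434 (4.69% and 4.82%; reference 9.71% and 9.8%). The rule removed sites with hnRNPA1 or RBFOX2 peaks and required hnRNPc peaks, while the reference was not selected in either way, so nothing is read from these distances to the reference. The hnRNPI-only peaks share the exclusion of hnRNPA1 and RBFOX2. On them, hnRNPA1 overlapped 3.33% and 3.62% and RBFOX2 2.12% and 2.22% in the RecJ libraries, less than on the sites in each library.

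With gel excision fewer sites were found. In lowRNase, hnRNPI overlapped 5053 and 4013 sites (56.1% and 44.5%; reference 63% and 56.1%). hnRNPc replicate 2 overlapped 2967 sites (32.9%; reference 7.64%), and the short list of replicate 1 overlapped 114 (1.27%; reference 0.354%). hnRNPA1 overlapped 364 and 338 sites (4.04% and 3.75%; reference 11.5% and 11.2%), and RBFOX2 overlapped 426 and 349 (4.73% and 3.87%; reference 12.4% and 10.9%). On these sites both hnRNPI libraries lay below their level on the reference, unlike in the RecJ libraries. On hnRNPI-only peaks, hnRNPA1 overlapped 3.34% and 3.21% and RBFOX2 4.29% and 3.42%, again less than on the sites in each library.

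Over these 16 libraries, hnRNP C and hnRNPI libraries overlapped 55.1% of the sites on average and hnRNPA1 and RBFOX2 libraries 4.49%. The difference was 50.6 percentage points, larger than the spread between replicates. An exact two-sided permutation test over libraries within preparation gave p = 0.00204, and 0.00408 after Benjamini-Hochberg adjustment over the 4 tests made. The short hnRNPc list was the only one of the 8 hnRNP C and hnRNPI libraries that lay below any hnRNPA1 or RBFOX2 library. Without it the difference was 56.0 points (exact permutation p = 0.000408). The rule had required hnRNPc and hnRNPI peaks and removed sites with hnRNPA1 or RBFOX2 peaks in the plain noPAGE lists. Both steps favour this direction, so the p-value is no independent support for it. The labels do not say whether RecJ libraries share lysates with those that chose the sites.

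Both proteins were found together again at a large part of the sites. All 4 RecJ libraries of hnRNP C and hnRNPI overlapped 3816 sites, 42.3%, against 6.1% of the reference. The reference holds the sites but did not require hnRNPc peaks, which favours this gap. On the peaks shared by all 4 proteins, which did require them, the share was 74.3%. Of the 3816 sites, 3148 had no RecJ peak of hnRNPA1 or RBFOX2. They met the whole rule in the RecJ libraries, as did 3.04% of the reference. A RecJ peak of hnRNPA1 or RBFOX2 lay on 1454 sites, 16.1%, above the 9.73% of hnRNPI-only peaks and below the 26.3% of the reference, which holds the peaks that the rule removed. When the lowRNase libraries of these 2 proteins were added, 2121 sites, 23.5%, were overlapped by at least 1 of the 8 lists, against 17.4% of hnRNPI-only peaks and 35% of the reference. Adding all lowRNase lists of hnRNP C and hnRNPI but the short one to the 4 RecJ lists left 801 sites in every one, 8.89%, against 1.55%.

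The hnRNP C peak was found again at most sites with 5k in the title and at fewer with 500. The 5k libraries overlapped 6617 and 6662 sites (73.4% and 73.9%; reference 15.4% and 15.3%), and the 500 libraries 4883 and 4888 (54.2% in both; reference 10.6% and 10.8%). With RecJ, the 5k libraries overlapped 6144 and 6469 (68.2% and 71.8%; reference 13.5% and 14.8%) and the 500 libraries 4034 and 4849 (44.8% and 53.8%; reference 8.67% and 11.5%). The 2 replicates of each group were closer to each other than to the other cell number.

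The 10k and 1k libraries, titled without noPAGE, also held part of the sites. The 10k libraries of hnRNP C overlapped 3146 and 3244 sites (34.9% and 36.0%; reference 7.98% and 8.06%), and the 1k libraries 2290 and 2417 (25.4% and 26.8%; reference 5.49% and 6.08%). RBFOX2 overlapped 288 and 300 sites in 10k (3.20% and 3.33%; reference 8.15% and 8.66%) and 78 and 123 in 1k (0.866% and 1.36%; reference 2.97% and 3.81%). RNase amount differed with cell number here, and no test was made. With medium RNase, hnRNP C overlapped 4203 and 4450 sites (46.6% and 49.4%; reference 9.02% and 10.7%), and hnRNPA1 466 and 519 (5.17% and 5.76%; reference 9.8% and 10.6%).

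**Figure D3:**
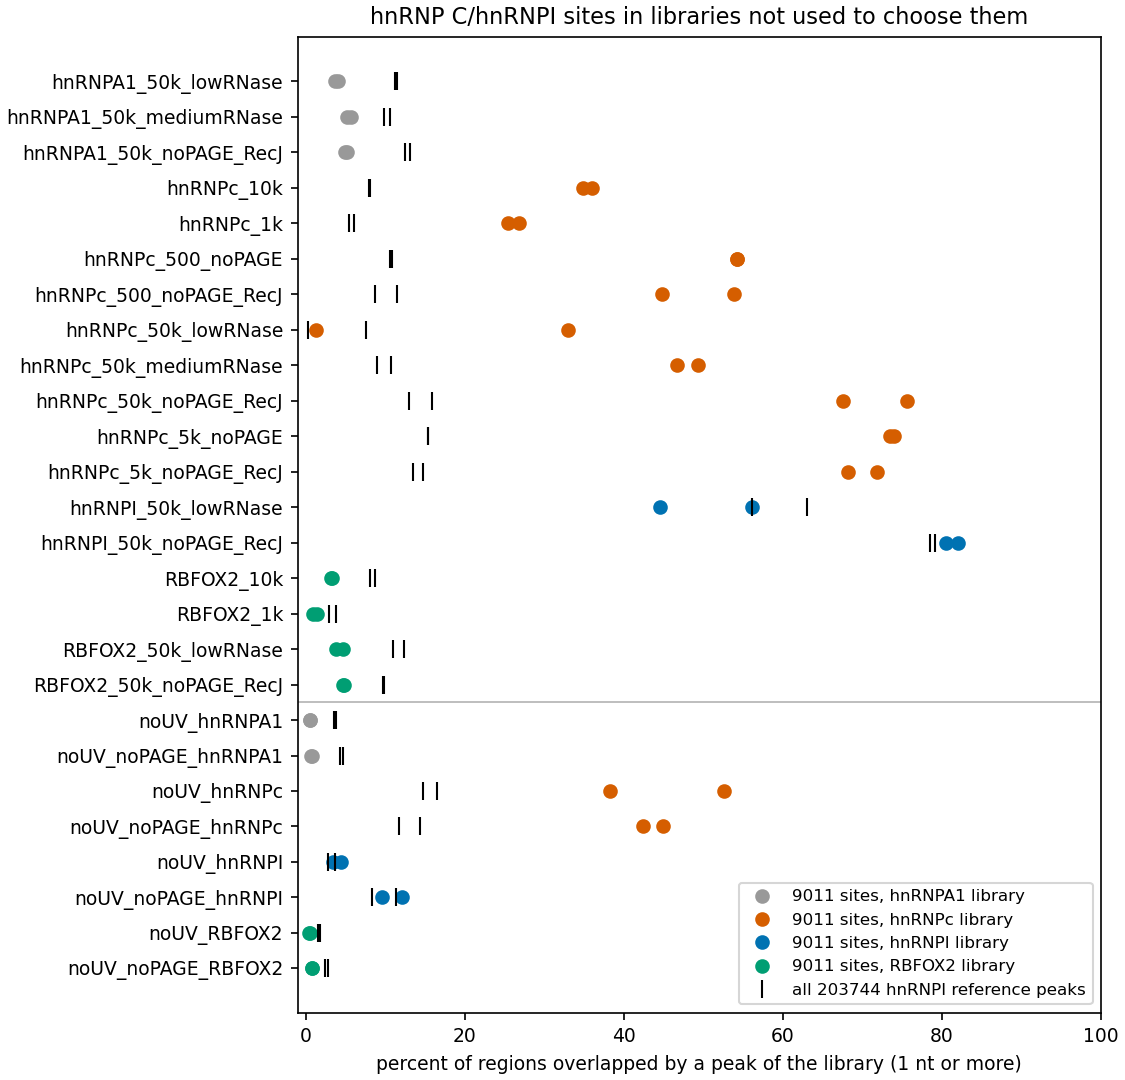
Percent of the 9011 sites (filled circles, coloured by immunoprecipitated protein) and of all 203744 hnRNPI reference peaks (black bars) overlapped by each library that the rule did not use, 2 replicates per group; the noUV groups lie below the grey line. The Background libraries are not shown. Circles of hnRNP C lie to the right of their bars in every library shown, those of hnRNPA1 and RBFOX2 to the left, as the rule favours.

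Whether a site was found again moved with its reads in the same protein. The sites were split into 4 equal groups by the smaller read number of the 2 hnRNPc lists, from 4 to 9 reads in the lowest to 24 to 1163 in the highest. Presence in the hnRNPc RecJ libraries rose from 43.7% and 54.2% in the lowest group to 89.97% and 94.7% in the highest. Presence in the hnRNPI RecJ libraries was 80.2% and 78.7% in the lowest and 85.1% and 82.7% in the highest. When the sites were ordered by hnRNPI reads, presence in hnRNPI RecJ rose from 57.1% and 54.9% to 98.8% and 98.4%, and that in hnRNPc RecJ from 63.4% and 72.4% to 73.0% and 78.9%.

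**Figure D4:**
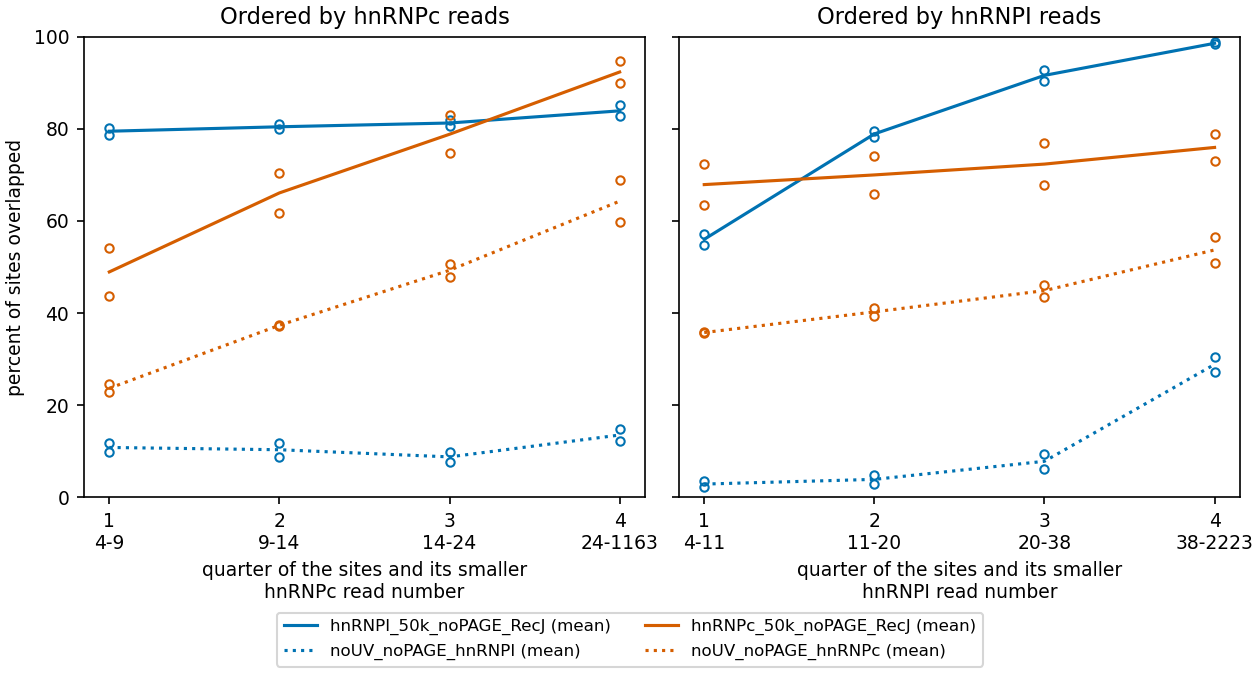
Percent of sites overlapped (y axis) in 4 equal groups of the sites ordered by the smaller hnRNPc (left) or hnRNPI (right) read number of the 2 lists that chose them; lines are means of 2 replicates (circles), solid for RecJ and dotted for noUV_noPAGE libraries. The hnRNPc lines rise most on the left and the hnRNPI lines most on the right. The hnRNPc lines also rise on the right, from 36.0% and 35.6% to 56.5% and 50.9% in noUV_noPAGE.

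Without crosslinking, a larger part of the sites carried a peak in hnRNP C libraries than in hnRNPI libraries when whole lists were used. A noUV hnRNPc library with gel excision overlapped 4745 and 3443 sites (52.7% and 38.2%; reference 16.5% and 14.7%), and without it 4049 and 3818 (44.9% and 42.4%; reference 11.7% and 14.4%). The noUV hnRNPI libraries overlapped 314 and 399 sites with gel excision (3.48% and 4.43%; reference 2.81% and 3.65%) and 867 and 1089 without (9.62% and 12.1%; reference 8.37% and 11.4%). All 4 hnRNP C values lay above all 4 hnRNPI values, and the hnRNPI values lay close to their reference. The rule required hnRNPc peaks and the reference did not, so the hnRNP C distances to the reference are not read. On the peaks shared by all 4 proteins, the noUV hnRNPc libraries overlapped 75.7% to 83.6%. The noUV hnRNPc lists were also the longer ones, and at equal list length the 2 proteins overlapped in range without gel excision (values below).

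The noUV libraries of hnRNPA1 and RBFOX2, proteins that the rule excluded, each overlapped under 1% of the sites. hnRNPA1 overlapped 52 and 45 sites with gel excision (0.577% and 0.499%; reference 3.79% and 3.59%) and 60 and 72 without (0.666% and 0.799%; reference 4.33% and 4.65%). RBFOX2 overlapped 45 and 33 (0.499% and 0.366%; reference 1.75% and 1.5%) and 68 and 72 (0.755% and 0.799%; reference 2.46% and 2.75%). On hnRNPI-only peaks these libraries gave 0.314% to 0.541% for hnRNPA1 and 0.125% to 0.364% for RBFOX2. The mean over the 8 noUV libraries of hnRNP C and hnRNPI was 26.0% and over the 8 of hnRNPA1 and RBFOX2 0.620%. The difference of 25.4 percentage points had an exact two-sided permutation p of 0.000408, the smallest possible, and an adjusted p of 0.00163. At equal list length, described below, it was 5.58 points (exact permutation p = 0.000408). Every noUV library of hnRNP C and hnRNPI lay above every one of hnRNPA1 and RBFOX2. The rule had required hnRNPc and hnRNPI peaks and removed hnRNPA1 and RBFOX2 peaks, with the same antibodies in crosslinked libraries. Both steps favour this direction, so the p-value is no independent support for it.

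Lists of other gel regions, all of hnRNP C immunoprecipitates, held few of the sites. The 75-100 kDa lists overlapped 50 and 25 (reference 0.316% and 0.225%) and the 150-250 kDa lists 6 and 11 (reference 0.119% and 0.122%). The 100-150 kDa lists overlapped 4 and 2 (reference 0.0893% and 0.107%) and the 50-75 kDa lists 6 and 3 (reference 0.106% and 0.105%). These lists were also short, with 303 to 6716 peaks.

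The noUV presence was mostly that of hnRNP C. Any of the 16 noUV libraries overlapped 7002 sites, 77.7%, against 41.6% of the reference. A noUV hnRNPc library overlapped 6742 (74.8%; reference 31.9%), a noUV hnRNPI library 1404 (15.6%; reference 14.1%), and a noUV library of hnRNPA1 or RBFOX2 296 (3.28%; reference 8.58%; hnRNPI-only peaks 1.73%). All 4 noUV hnRNPc libraries overlapped 1542 sites (17.1%; reference 3.48%), and all 4 noUV hnRNPI libraries 166 (1.84%; reference 1.56%). The sites had to have hnRNPc peaks and the reference did not, so nothing is read from the hnRNP C distances to it. On the peaks shared by all 4 proteins, which also had to have them, at least 1 noUV hnRNPc library overlapped 94.3%. All 4 of those libraries overlapped 63.1% of them, more than of the sites. In 1111 sites all 4 noUV hnRNPc libraries and no noUV hnRNPI library had a peak (reference 1.65%), and in 28 sites the reverse was found (reference 0.582%). All 8 overlapped 48 sites, against 0.459% of the reference.

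Presence in noUV hnRNPc libraries went with hnRNP C coverage. Of the 9011 sites, 2269 were in no noUV hnRNPc library, 1959 in 1, 1795 in 2, 1446 in 3 and 1542 in all 4. Their median reads in hnRNPc_50k_noPAGE replicate 1 were 11, 14, 17, 21 and 28 in that order, and in hnRNPI replicate 1 they were 18, 23, 26, 28 and 33.5. Both hnRNPc RecJ libraries overlapped 38.2% of the sites in no noUV hnRNPc library and 83.8% of those in all 4. Presence in noUV hnRNPI libraries went with hnRNPI coverage in the same way. Median reads in hnRNPI replicate 1 were 21 for the 7607 sites in none and 187 for the 166 in all 4, while the medians in hnRNPc replicate 1 were 17 and 18. The 2009 sites in no noUV library at all had medians of 17 reads in each hnRNPI replicate and 12 and 13 in the hnRNPc replicates.

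Seen from the hnRNP C lists, noUV presence was also higher on the sites than among all hnRNP C peaks found in both replicates. The 2 sets were not matched for reads. Median hnRNPc reads were 17 and 18 on the sites and 11 in each whole hnRNPc_50k_noPAGE list. The whole lists also hold peaks not found in both replicates, and the median of the replicated peaks alone is not given here. Of the 8456 hnRNPc peaks on the sites, 53.5% and 38.7% were overlapped by the noUV hnRNPc libraries with gel excision and 46.0% and 43.7% by those without. Among all 209379 hnRNPc peaks found in both replicates, the values were 38.3%, 28.3%, 31.1% and 31.3%. Each of the 4 libraries gave the higher share on the sites. The peaks were also found more often in crosslinked RecJ libraries, at 69.9% and 77.8% on the sites and 63.2% and 71.6% overall.

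Crosslinked hnRNPI libraries held far more of the sites than noUV ones, and in hnRNP C libraries the direction differed between preparations. For hnRNPI, the percent of sites overlapped was 50.3% ± 8.16 (SD, n = 2) in lowRNase and 3.96% ± 0.667 (SD, n = 2) without crosslinking, and it was 81.3% ± 1.11 in RecJ and 10.9% ± 1.74 in noUV_noPAGE (SD, n = 2 each). The differences were 46.3 and 70.4 percentage points. For hnRNP C without gel excision it was 71.6% ± 5.69 in RecJ and 43.7% ± 1.81 without crosslinking (SD, n = 2 each), 27.9 points apart. With gel excision it was 17.1% ± 22.4 crosslinked and 45.4% ± 10.2 without (SD, n = 2 each). There the crosslinked libraries were lower by 28.3 points, and by 12.5 points without the short list. On the whole hnRNPI reference, crosslinked minus noUV was 56.3 points for hnRNPI and -11.6 for hnRNP C with gel excision. Without gel excision it was 69.0 and 1.35 points. The reference was chosen by crosslinked hnRNPI peaks alone, which favours this contrast. On the peaks shared by all 4 proteins, which required peaks of both, hnRNPI gave 26.4 points and hnRNP C -38.0 with gel excision. There the hnRNP C value was -11.2 points without the short list. Without gel excision the values on them were 24.9 and 8.29 points, so hnRNPI had the higher value on that set too.

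Over both proteins and both preparations, crosslinked libraries overlapped 55.1% and noUV libraries 26.0% of the sites, 29.1 percentage points apart and in the same direction in 3 of 4 pairs of groups. The exact two-sided permutation p was 0.0386 and the adjusted p 0.0514, which misses 0.05. Without the short list the difference was 33.0 points (exact permutation p = 0.0123). The rule had required peaks in crosslinked libraries of these 2 proteins and set no condition on noUV libraries. That favours this direction, so these p-values are no independent support for it. The RecJ libraries stand in for crosslinked libraries without gel excision, since the plain ones chose the sites, so the RecJ step differs along with crosslinking. The fall in hnRNPI exceeded that in hnRNP C by 58.6 points on average over the 2 preparations. An exact two-sided permutation of the protein among libraries gave p = 0.00154, the smallest possible, in a test chosen after the values were seen and not adjusted. Without the short list the difference was 50.7 points (exact permutation p = 0.00154).

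The length of the lists moved with these results. The noUV hnRNPI lists held 18690, 36809, 44086 and 78945 peaks, and the noUV hnRNPc lists 299616, 299307, 187729 and 278452. The crosslinked hnRNPI lists of these comparisons held 294597 to 342529. When each list was limited to its 18690 peaks of smallest p-value (the short list kept whole), an alternative chosen after seeing the data, the noUV hnRNPc libraries overlapped 8.80%, 4.31%, 9.43% and 4.58% of the sites. The noUV hnRNPI libraries then overlapped 3.48%, 3.35%, 6.18% and 5.55%, so that without gel excision the 2 proteins overlapped in range. On the reference, the same lists gave 1.68% to 2.21% for hnRNP C and 2.695% to 5.31% for hnRNPI.

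At equal length both tested crosslinking differences were also smaller, in the same direction. That between crosslinked and noUV libraries was 4.04 points (exact permutation p = 0.0401, not adjusted), and 4.79 points without the short list (exact permutation p = 0.0108). The rule favours the direction of this difference here too. The fall in hnRNPI exceeded that in hnRNP C by 6.89 points (exact permutation p = 0.0170, not adjusted), and by 5.40 points without the short list (exact permutation p = 0.0293). With gel excision, crosslinked hnRNPI libraries gave 10.4% and 7.71%, and crosslinked hnRNPc libraries 1.27% and 7.24%. With RecJ they gave 15.4% and 15.0% for hnRNPI and 10.6% and 10.4% for hnRNP C.

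**Figure D5:**
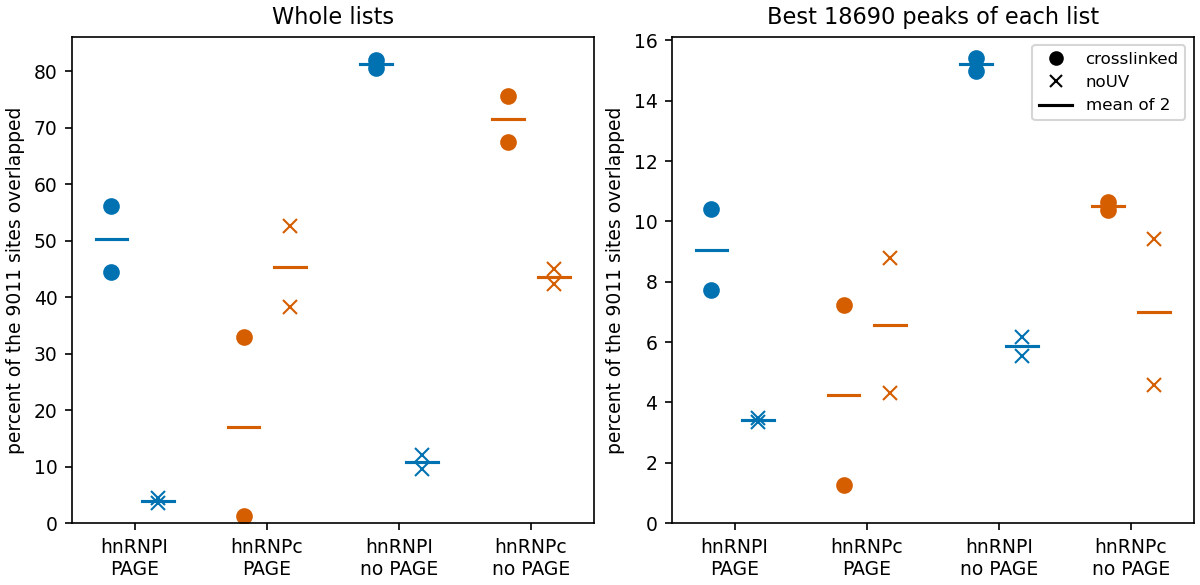
Percent of the 9011 sites overlapped (y axis, starting at 0, scales differ) by crosslinked (circles; lowRNase for PAGE, RecJ for no PAGE) and noUV libraries (crosses) of hnRNPI (blue) and hnRNP C (orange), with the mean of 2 replicates as a line; whole lists on the left, lists limited to 18690 peaks on the right. On the left, hnRNPI is lower without crosslinking in both preparations, and hnRNP C is higher without crosslinking with PAGE and lower without PAGE.

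Single sites show how the peaks of the 2 proteins compared. Those with the highest smallest read number over the 4 hnRNPI and hnRNPc lists are given first, 1 per gene. The top site was chrX:73051022-73051036 on the minus strand, 15 nt wide. It had 2257 and 2223 reads in the hnRNPI replicates and 738 and 882 in the hnRNPc replicates. The hnRNPc centres lay 29 nt and 26.5 nt upstream of the anchor centre, while that of hnRNPI replicate 2 lay at 0 nt. All 4 noUV hnRNPI libraries had a peak there (58, 109, 476 and 724 reads), as did the noUV_noPAGE hnRNPc libraries (498 and 912 reads). So did 6 noUV libraries of hnRNPA1 and RBFOX2, with 45 to 390 reads, although the crosslinked libraries of those proteins had none. No lowRNase library overlapped it.

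The next site differed from it in the noUV libraries of hnRNPI and hnRNP C. At chrX:107964073-107964090 on the minus strand, hnRNPI had 355 and 336 reads and hnRNP C 415 and 389, and the hnRNPc centres lay at 0 nt and -3.5 nt. The 4 noUV hnRNPc libraries had more reads there, 743, 628, 538 and 564, and no noUV hnRNPI library overlapped it. As at the top site, 6 noUV libraries of hnRNPA1 and RBFOX2 also had a peak, here with 21 to 144 reads. Read numbers are not scaled between libraries. A pair of further sites adjoined it, at chrX:107964091-107964133 and chrX:107964134-107964203, each in 12 noUV libraries.

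The next pair of sites was present in all 4 noUV hnRNPc libraries. The site chr20:47901427-47901570 on the plus strand had 257 and 265 hnRNPI reads and 218 and 304 hnRNPc reads. Its noUV peaks were in those 4 libraries alone, with 44 to 77 reads. The site chrX:24093298-24093382 on the plus strand, listed under 2 genes, had 264 and 398 hnRNPI reads and 188 and 219 hnRNPc reads. In noUV libraries it had 68 to 296 reads in hnRNP C, and 5, 6 and 17 in the 3 hnRNPI libraries with a peak. Both sites kept peaks in all RecJ libraries of both proteins and in none of hnRNPA1 and RBFOX2.

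At 3 further sites the hnRNPI read numbers were also the higher ones. At chr6:30693023-30693113 on the plus strand the hnRNPI replicates had 602 and 508 reads and the hnRNPc replicates 175 and 179. Within ENSG00000145147, chr4:20308232-20308272 had 179 and 235 hnRNPI reads and 136 and 169 hnRNPc reads, with the hnRNPc centres at -2 nt and -6 nt. At chr1:33258926-33259071 on the minus strand hnRNPI had 245 and 235 reads and hnRNP C 126 and 143. In each of these 3 sites, as at chrX:24093298-24093382, both hnRNPI replicates were above both hnRNPc replicates.

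The remaining 4 sites of this order had under 200 reads in every one of the 4 lists. The sites chr10:96323321-96323403 and chr10:96364057-96364162, both on the plus strand, had 189 and 161, and 172 and 122 hnRNPI reads. Their hnRNPc reads were 135 and 149, and 129 and 120. At chr6:31804686-31804812 on the plus strand, hnRNPI had 141 and 123 reads and hnRNP C 143 in both replicates. The last, a 31 nt site on chromosome 8, had 129 and 174 hnRNPI and 138 and 146 hnRNPc reads. It was the only one of these sites with RBFOX2 RecJ peaks in both replicates (129 and 126 reads).

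The sites present in most noUV libraries were of several kinds. One 7 nt site at chr17:37009957-37009963 on the minus strand was in 13 of the 16, the most of any. It had only 6 reads in each hnRNPI replicate and 142 and 148 in hnRNP C, and the noUV hnRNPc libraries had 306, 154, 250 and 171. At chr11:65268431-65268491 on the plus strand, hnRNP C had 1178 and 1163 reads and hnRNPI 91 and 51. The noUV hnRNPc libraries had 1541, 1603, 709 and 1039 reads there, and the noUV hnRNPI libraries 25, 12, 25 and 56. The opposite lean was found at chr4:129192089-129192257 on the minus strand, with 466 and 396 hnRNPI reads and 17 and 24 hnRNPc reads. It was in all 8 noUV libraries of both proteins, with 23, 32, 63 and 85 reads in hnRNPI and 29, 18, 17 and 13 in hnRNP C.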

How the data were processed

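Deposited files were 1 peak list per library, made by the authors: position, strand, gene identifier, a number taken as reads, an inner interval of at most 4 nt and a p-value that the authors' caller gave, unadjusted as far as stated. File names give CLIPper as the caller. Per the submitters' processing notes, the build was hg19 and the tools were bcl2fastq, STAR 2.7.3a and UMI-tools 1.0.1. Peaks were listed per library, the largest deposited p-value was 0.00755, and depth is unknown.

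Overlap meant at least 1 nt on the same strand. Where several peaks overlapped a site, reads and distance were taken from the one with the nearest centre. The percent of sites overlapped was computed per library, and groups were compared over libraries by exact two-sided permutation tests, relabelled within preparation (and protein), with Benjamini-Hochberg adjustment over 4 tests. The background is the percent of the hnRNPI reference. Scripts used Python 3.11.15, numpy 2.4.6, pandas 2.3.3, scipy 1.17.1 and numba 0.67.0, and the overlap search was tested on simulated data.

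Members, lists and tests were chosen with earlier results of these data known. Named sites are the 12 genes with most sites, the 12 sites with the highest smallest read number (1 per gene), and the 6 in most noUV libraries. Gene names, marker genes, gene lists and motifs were not used: 0 identifiers matched the gene table at hand, which is of another build. Replicate numbers did not pair libraries: deviations of sites from their group means correlated between -0.053 and 0.052 in 120 pairs of groups, with 0 above 0.1. Alternatives were overlap, p-value threshold, anchor, joined peaks, left-out libraries, replicate block, the centre, either replicate, chromosome M and list length.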

Additional observations from a re-analysis of the deposited data

Results flagged for a closer look

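Crosslinked minus noUV presence of the sites with gel excision had opposite signs in the 2 proteins. It was -28.3 percentage points in hnRNP C libraries and 46.3 percentage points in hnRNPI libraries (2 libraries against 2 each). The signs were opposite on the whole hnRNPI reference too, at -11.6 and 56.3 points. On hnRNPI-only peaks the values were -7.12 and 55.8 points. Both of these sets required crosslinked hnRNPI peaks but no hnRNP C peaks, and hnRNPI-only peaks excluded them, which favours these signs. The peaks shared by all 4 proteins, which required peaks of both, gave -38.0 points for hnRNP C and 26.4 points for hnRNPI. Without the short list the hnRNP C value on them was -11.2 points. The opposite signs were thus also found on a set chosen by both proteins. The difference in the fall between the proteins was 58.6 percentage points over both preparations (exact permutation p = 0.00154, the smallest possible, not adjusted). That test was chosen after the values were seen, so its p-value is no independent support for the difference. Without the short hnRNPc_50k_lowRNase list the hnRNP C value on the sites was -12.5. At equal list length the difference in the fall was 6.89 points, or 5.40 without that list. At equal list length the other crosslinked hnRNPc library with gel excision overlapped 7.24% of the sites. This lay between the noUV hnRNPc values of 8.80% and 4.31%, so without the short list the opposite sign was not kept. List length, a preparation batch and RecJ moved with these groups, and their part in the difference was not tested beyond the equal-length values.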

How the results depend on the processing

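The number of sites was 4877 when peaks had to share at least 50% of the anchor peak and 5278 with peaks of p below 1e-05. Leaving out 1 library of the rule at a time, which drops its condition, gave 9557 to 17664 sites. The rule favours the direction of the differences by antibody, with and without crosslinking, and that of crosslinked minus noUV. The difference by antibody in crosslinked libraries ranged from 42.2 to 56.0 percentage points over left-out libraries, and stayed past 0.05 in all 31 alternatives. That without crosslinking ranged from 19.5 to 28.9 over left-out libraries. Counted as presence in either replicate it was 34.2 with p = 0.0556, the smallest that its 36 exact relabellings allow. The crosslinked minus noUV difference ranged from 23.4 to 33.0 over left-out libraries, and its unadjusted exact permutation p exceeded 0.05 in 7 of 24 such cases, up to 0.108 without hnRNPc_50k_lowRNase replicate 2. The centre distance ranged from 2.56 to 5.44 nt over left-out libraries and was 2 nt with overlaps of at least 50% of the anchor peak. The difference in fall between proteins ranged from 41.5 to 66.5 over left-out libraries, and was 39.6 with overlaps of at least 50% of the anchor peak, 6.89 at equal list length and 5.40 at equal list length without the short list. No tested difference changed direction in the alternatives run. The hnRNP C difference with gel excision was not followed on its own in these alternatives. With the replicate number as a block, the crosslinked minus noUV difference was 29.1 (exact permutation p = 0.0938), and no other result crossed 0.05; the numbers did not pair libraries. Depth, separate cultures and exon or intron position of the sites are not known here.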
